A study of Mus musculus with 42 samples.

Results

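Beta-defensins are small secreted peptides held together by disulphide bonds, and their genes lie in a few dense clusters. The family is known for killing microbes at epithelial surfaces. In the male tract it is best known from the epididymis, a coiled duct whose epithelium secretes different beta-defensins from segment to segment, some of which coat the sperm as they pass towards the vas deferens. Here the family was taken as every probe set with a single gene symbol made of Defb and a number. This gave 40 genes with 1 probe set each, out of 19938 genes measured, and 3 of them lie on chromosome 1, 11 on chromosome 2, 21 on chromosome 8 and 5 on chromosome 14.

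RNA was measured on 42 whole-transcript arrays of adult CD1/129 mice aged 3 to 7 months, in 14 groups of 3 biological replicates. Vas deferens and uterus were taken from 5 genotypes. Wild type (WT) was compared with Hoxa9,10,11-/- (AKO), Hoxd9,10,11-/- (DKO), Hoxa9,10,11-/- with 1 mutant copy of Hoxd9,10,11 (AKDH, Hoxa9,10,11-/-d9,10,11+/-) and Hoxd9,10,11-/- with 1 mutant copy of Hoxa9,10,11 (AHDK, Hoxa9,10,11+/-d9,10,11-/-). The caudal epididymis and the oviduct were taken from WT and AKO mice, and females were in diestrus. Hox genes of these paralogous groups set segment identity along the reproductive tract. The labels do not say what the mutant alleles remove or whether the tissues of a group came from the same animals.

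Every value is a log2 value centred within a sex: each gene has a median of 0 over the 21 male arrays and again over the 21 female arrays. Levels therefore cannot be compared between genes or between sexes, and whether a gene is expressed at all cannot be read from them. Tissue labels could likewise be checked against markers only as differences between arrays. Of the targeted genes, Hoxa11 split the arrays labelled Hoxa9,10,11-/- from the rest of the vas deferens, at -0.63 to -0.37 in AKO and -0.84 to -0.44 in AKDH, against 0.43 to 1.38 in WT, 1.23 to 1.66 in DKO and 0.33 to 1.68 in AHDK. It lay at -0.80 to -0.63 in the AKO epididymis and -0.01 to 0.76 in WT. Hoxa9 was not lower in AKO vas deferens (0.08 to 0.34) than in WT (-0.32 to 0), and the ranges of Hoxa10 overlapped (-0.16 to 0.17 against 0.15 to 0.90). Among the Hoxd genes, Hoxd9 was lower in DKO (-0.86 to -0.56) and AHDK vas deferens (-0.70 to -0.66) than in WT (-0.26 to -0.13). Hoxd10 was not (0.0001 to 0.66 and -0.002 to 0.69, against -0.20 to 0.33), and in the uterus Hoxd9 (0 to 0.31 in DKO, -0.10 to 0.50 in WT) and Hoxd10 (0.20 to 0.51, 0.05 to 0.31) did not separate DKO from WT. Hoxa10 did separate AKO from WT in the epididymis (-0.47 to -0.26 against -0.02 to 0.78) and the uterus (-1.19 to 0.08 against 0.31 to 0.85). The targeted genes thus followed the labels in part, and genotypes are given as labelled. Earlier results of these data had set 3 arrays apart: epididymis AKO replicate 1, vas AKDH replicate 3 and oviduct WT replicate 2. The mean over 16 genes of proximal epididymis principal cells was 5.11 in epididymis AKO replicate 1, 1.11 and 1.10 in the other AKO arrays, and 0.56, 0.65 and 0.71 in WT. A mean over 12 sperm and spermatid genes was 1.08 in vas AKDH replicate 3 and -1.18 and -0.93 in the other AKDH arrays. The next highest vas deferens arrays were AHDK replicate 3 (1.03), which was not set apart, and DKO replicate 2 (0.66). A mean over 9 ovary genes was 2.36 in oviduct WT replicate 2 and 0.62 and 0.08 in the other WT oviducts.

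The promoters below belong to genes that the male results turn on. On chromosome 14 the genes Defb48, Defb47, Defb43, Defb30 and Defb42 follow each other in this order, and in AKO vas deferens Defb48 and Defb43 rose while Defb30, next to Defb43, fell. The 4 promoters of the neighbours that changed in a Hoxa-null vas deferens, AKO or AKDH, are shown with that of Defb38, the member with the largest rise in AKO vas deferens. Each run is the 250 bases before the annotated start, 5′ to 3′ on the strand of the gene, from RefSeq on GRCm38.p6: chr14:62984511-62984760 (minus) for Defb48, chr14:63011521-63011770 (plus) for Defb43, chr14:63037847-63038096 (minus) for Defb30, chr14:63046741-63046990 (plus) for Defb42 and chr8:19026569-19026818 (minus) for Defb38. Capitals mark matches, on either strand, to TATAAA (the TATA box), AGAACA (part of the response elements of steroid hormone receptors) or TTTATGG (a site preferred by posterior Hox proteins).
Defb48: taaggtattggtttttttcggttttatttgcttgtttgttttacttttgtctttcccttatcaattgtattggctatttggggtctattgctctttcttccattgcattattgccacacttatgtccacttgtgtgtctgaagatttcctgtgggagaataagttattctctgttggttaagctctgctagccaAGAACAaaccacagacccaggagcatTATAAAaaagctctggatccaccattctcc
Defb43: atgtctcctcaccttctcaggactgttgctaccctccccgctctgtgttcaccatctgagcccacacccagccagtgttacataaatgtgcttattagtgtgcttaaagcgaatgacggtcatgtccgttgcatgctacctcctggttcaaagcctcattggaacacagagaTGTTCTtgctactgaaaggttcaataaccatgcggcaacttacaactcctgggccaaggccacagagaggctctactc
Defb30: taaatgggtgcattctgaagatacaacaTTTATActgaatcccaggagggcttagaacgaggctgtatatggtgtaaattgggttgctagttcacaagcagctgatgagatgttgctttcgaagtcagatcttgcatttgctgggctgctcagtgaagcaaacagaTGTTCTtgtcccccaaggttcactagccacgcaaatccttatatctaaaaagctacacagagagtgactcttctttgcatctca
Defb42: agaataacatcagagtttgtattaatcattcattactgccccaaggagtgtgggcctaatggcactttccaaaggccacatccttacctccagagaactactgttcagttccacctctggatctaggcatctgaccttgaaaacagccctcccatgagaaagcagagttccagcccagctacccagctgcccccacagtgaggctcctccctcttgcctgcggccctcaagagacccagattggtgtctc
Defb38: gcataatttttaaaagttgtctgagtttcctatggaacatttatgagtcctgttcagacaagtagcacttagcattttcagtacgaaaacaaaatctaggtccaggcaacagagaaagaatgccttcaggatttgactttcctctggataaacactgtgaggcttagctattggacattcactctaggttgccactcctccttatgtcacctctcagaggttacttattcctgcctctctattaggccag

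Defb48 held TATAAA at bases 30 to 25 and AGAACA at bases 56 to 51 before the start. The promoter of Defb43 held AGAACA in reverse complement at bases 78 to 73, and that of Defb30 held it, also in reverse complement, at bases 84 to 79, with a TATAAA in reverse complement at bases 222 to 217. Neither Defb42 nor Defb38 had a match in this window. All 40 members matched a RefSeq gene by gene ID, and 28 of them had 29 promoters in the table. Among these 29, AGAACA was found in 14 (48.3%), against 16.1% of all 32851 promoters of the same length, and TATAAA in 5 (17.2%), against 12.4%. TTTATGG was in none of the 29, against 2.43% of all promoters. The searched motifs do not overlap each other, and these matches describe letters in a window, not bound sites.

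In WT males, beta-defensin RNA differed strongly between the caudal epididymis and the vas deferens. Of the 40 members 17 were higher and 2 lower in the epididymis at a limma adjusted p below 0.05, the threshold for every call (47.5%, against 28.1% of all genes called in either direction). Of all genes 11.2% were called higher and 16.8% lower. The epididymis arrays lay wholly above the vas deferens arrays in 26 members and wholly below in 2, against 19.4% and 24.3% of all genes. The median difference was 0.52 over the members and -0.01 over all genes. In whole tissue, fewer cells of a type and less RNA per cell cannot be told apart. Cell markers moved with this comparison: of the listed genes, 11 of 12 sperm genes (median 2.42), 6 of 7 clear and narrow cell genes (2.22) and 5 of 16 proximal epididymis genes were higher in the epididymis, and 10 of 10 smooth muscle genes (-1.13), 6 of 10 adipocyte genes (-1.12) and 4 of 6 general epithelial genes (-0.31) were lower. Their part in the beta-defensin differences was not tested.

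Defb22, whose glycosylated product coats the sperm surface, had the largest difference. Its values were 5.40, 6.02 and 6.29 in the WT epididymis and -0.30, -0.31 and 0.16 in the WT vas deferens, a log2 difference of 6.05 (SE 0.29, adjusted p = 8.89e-10). The 3 epididymis arrays all stood far above the vas deferens. Defb37, Defb38, Defb39 and Defb40 are neighbouring genes of the chromosome 8 cluster known for expression in the epididymis. Defb38 was at 2.97, 3.04 and 3.16 against -2.79, -3.52 and -2.48 (difference 5.98, SE 0.38). Defb37 was at 3.08, 3.31 and 3.38 against -1.74, -2.04 and -2.03 (5.20, SE 0.25). Defb39 was at 5.11, 5.21 and 5.11 against 0.18, -0.98 and -0.39 (5.54, SE 0.57). No epididymis value of these genes came near the vas deferens values, and Defb39 spread more among the vas arrays than in the epididymis.

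The other members among the 10 largest rises were Defb26 (5.10), Defb40 (4.52), Defb23 (4.02), Defb28 (3.48), Defb10 (3.33) and Defb6 (2.51). Defb23, Defb26 and Defb28 belong to the chromosome 2 cluster, in which 4 of 11 members were higher in the epididymis, against 11 of 21 on chromosome 8. The spread in this fit was estimated over all male arrays, including epididymis AKO replicate 1. Without the arrays set apart, 27 of the 40 members were called instead of 19, and those calls were not counted by chromosome. Smaller called differences were those of Defb14 (2.50), an inducible antimicrobial peptide of epithelia, Defb1 (2.18), a beta-defensin made constitutively by many epithelia, Defb11 (2.14), Defb43 (1.39), the pseudogene Defb44-ps (0.75), Defb33 (0.75) and Defb3 (0.35). The calls of Defb3 (adjusted p = 0.0533) and Defb33 (0.0653) did not hold when only the WT arrays were fitted.

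Defb30 and Defb42, neighbours on chromosome 14, ran the other way. Defb30 was at -2.60, -2.24 and -0.89 in the WT epididymis and at 2.03, 1.07 and 1.78 in the WT vas deferens (difference -3.54, SE 0.57, adjusted p = 0.000186). Defb42 was at -2.37, -1.59 and -1.03 against 0.86, 0.24 and 0.72 (-2.27, SE 0.46, adjusted p = 0.00131). For both genes every vas deferens array lay above every epididymis array. The heat map of the male arrays shows both patterns side by side, together with 6 members whose values spanned less than 0.5 over all 21 male arrays (Defb4, Defb5, Defb7, Defb8, Defb46 and Defb50, spans 0.253 to 0.487).

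**Figure D1:**
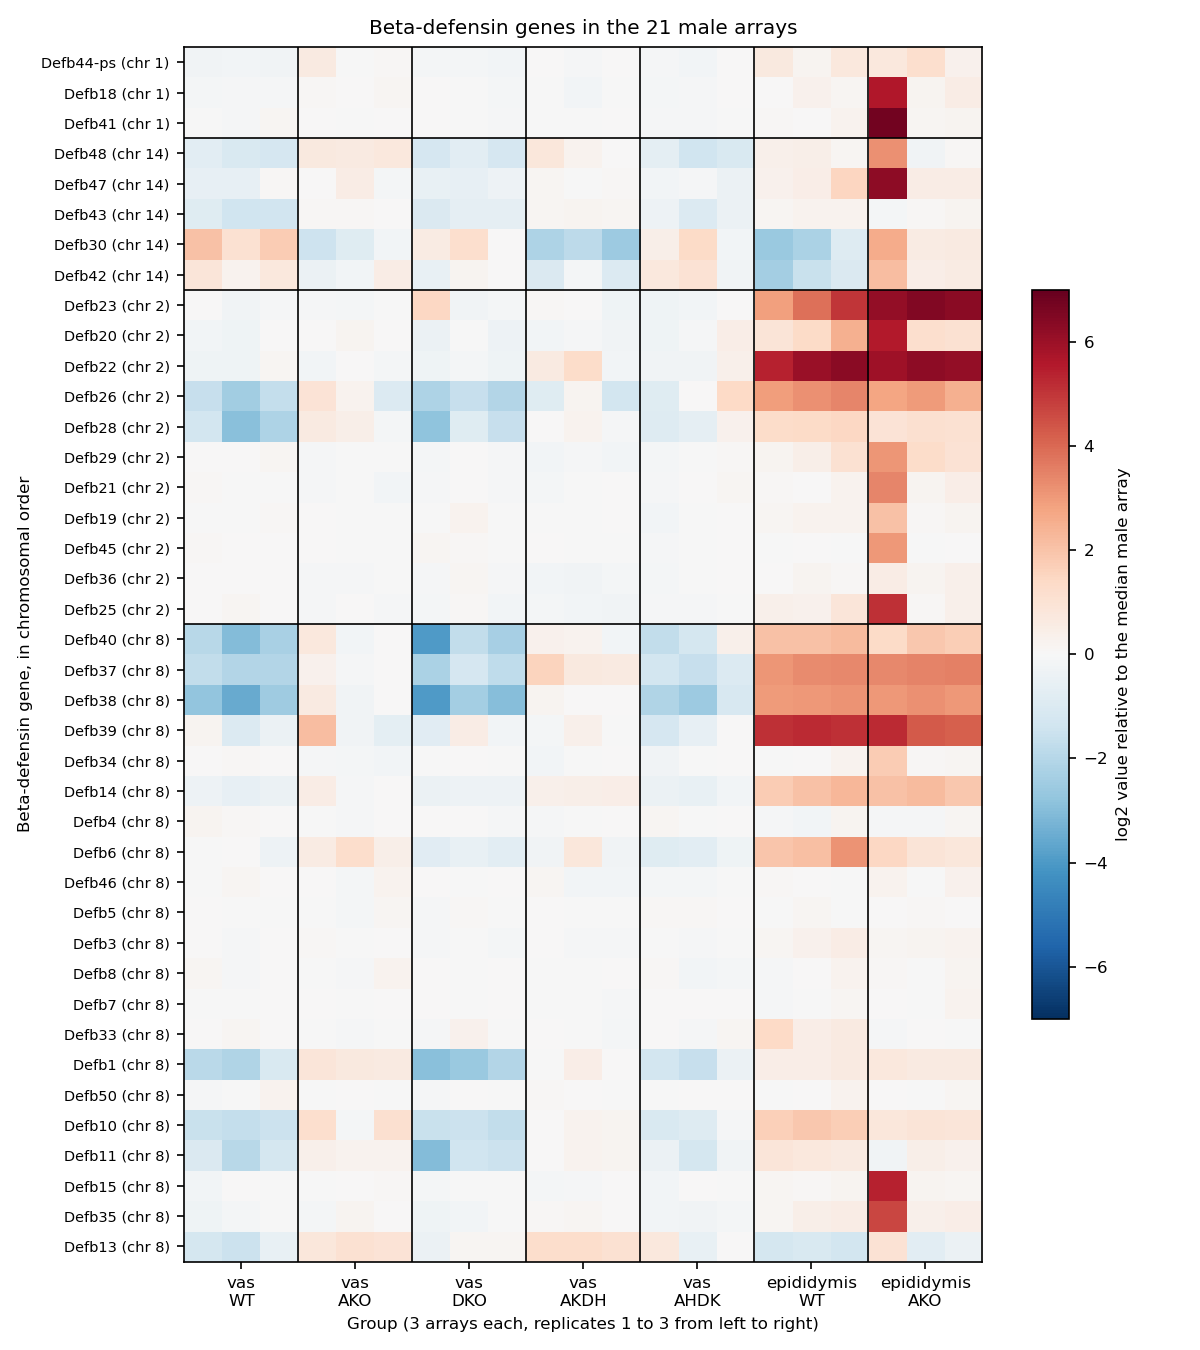
Heat map of the 40 beta-defensin genes (rows, in chromosomal order) in the 21 male arrays (columns, by group), coloured by the log2 value relative to the median male array. The WT epididymis columns are red for most chromosome 8 and chromosome 2 genes that differ, the rows of Defb30 and Defb42 are blue there, and epididymis AKO replicate 1 has 14 rows more than 1 above every other array.

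In the vas deferens labelled Hoxa9,10,11-/-, a subset of the family rose. In AKO 12 members were higher and 1 was lower than in WT (32.5%, against 9.35% of all genes in either direction). Of all genes 4.91% were called higher and 4.44% lower. The AKO arrays lay wholly above the WT arrays in 15 members and wholly below in 7, against 14.2% and 19% of all genes. The median difference was 0.07 over the 40 members and -0.02 over all genes, so the rises belonged to a subset: 22 of the 27 members not called differed by less than 0.25.

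Defb38 rose most, from -2.79, -3.52 and -2.48 in WT to 0.61, -0.26 and 0 in AKO, a log2 difference of 3.05 (SE 0.43, adjusted p = 0.00131). Its neighbour Defb37 went from -1.74, -2.04 and -2.03 to 0.29, -0.08 and 0 (2.01, SE 0.28, adjusted p = 0.00126). Defb40 went from -1.96, -3.03 and -2.25 to 0.74, -0.19 and 0 (2.60, SE 0.59, adjusted p = 0.0167). Each of these chromosome 8 genes was higher in every AKO array than in any WT array. Defb39, in the same stretch, was not called: WT gave 0.18, -0.98 and -0.39 and AKO 2.15, -0.25 and -0.68 (0.80, adjusted p = 0.509), and only AKO replicate 1 was high.

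Defb1, Defb10, Defb11 and Defb13 lie further along chromosome 8. Defb1 went from -1.90, -2.08 and -1.05 to 0.84, 0.71 and 0.65 (2.41, SE 0.33, adjusted p = 0.00108). Defb10 went from -1.54, -1.66 and -1.51 to 1.18, -0.12 and 1.13 (2.30, SE 0.31, adjusted p = 0.000975). Defb13 went from -1.24, -1.50 and -0.51 to 0.79, 1.05 and 0.98 (2.02, SE 0.29, adjusted p = 0.00153). For all 3 genes the AKO and WT arrays did not overlap. Defb11 was at -1.02, -1.92 and -1.23 in WT and at 0.38, 0.26 and 0.24 in AKO (1.69, SE 0.39, adjusted p = 0.0186), and Defb14 at -0.38, -0.58 and -0.41 against 0.53, -0.06 and 0 (0.61, SE 0.13, adjusted p = 0.0123). Both were higher in all 3 AKO arrays.

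On chromosome 14, Defb48 went from -0.73, -1.07 and -1.16 to 0.70, 0.63 and 0.76 (1.68, SE 0.22, adjusted p = 0.00074), and Defb43 from -0.84, -1.41 and -1.32 to 0.08, 0.08 and 0 (1.24, SE 0.17, adjusted p = 0.00116). The single member that fell was Defb30, from 2.03, 1.07 and 1.78 to -1.46, -0.84 and -0.18 (-2.45, SE 0.44, adjusted p = 0.00489). Defb42, beyond it, was at 0.86, 0.24 and 0.72 in WT and -0.39, -0.20 and 0.53 in AKO, where the groups overlapped (-0.63, not called). Among chromosome 2 genes Defb28 rose, from -1.28, -2.95 and -2.18 to 0.65, 0.38 and -0.12 (2.44, SE 0.50, adjusted p = 0.00961). Defb44-ps, on chromosome 1, differed by 0.47 (adjusted p = 0.0388).

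Several of these calls rested on the full set of arrays. Without WT replicate 2 the adjusted p was 0.0594 for Defb14, 0.0769 for Defb40, 0.0857 for Defb11 and 0.0937 for Defb44-ps. Without AKO replicate 1 it was 0.0727 for Defb40 and 0.0646 for Defb11, and without AKO replicate 2 or 3 it was 0.0517 or 0.0513 for Defb11. Defb44-ps also missed the threshold without WT replicate 1 (0.0957) or WT replicate 3 (0.0865). The other 9 calls held with each array left out in turn. Defb26 (2.00, adjusted p = 0.0549) and Defb6 (0.84, adjusted p = 0.0826) had not passed.

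Defb22 showed no such rise in AKO, with WT at -0.30, -0.31 and 0.16 and AKO at -0.20, 0 and -0.16 (0.03, adjusted p = 0.973). The AKO vas deferens arrays can be set beside the WT epididymis arrays, which are separate samples. Of the 12 members that rose, 8 stayed below the WT epididymis in all 3 AKO arrays (Defb10, Defb11, Defb14, Defb28, Defb37, Defb38, Defb40 and Defb43), 3 lay above it (Defb1, Defb13 and Defb48), and Defb44-ps overlapped it. The matching shares of all genes were not counted, so these counts only describe the members. For Defb38 the AKO vas deferens reached 0.61 at most, against at least 2.97 in the WT epididymis, and for Defb13 it was at least 0.79, against at most -1.08.

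**Figure D2:**
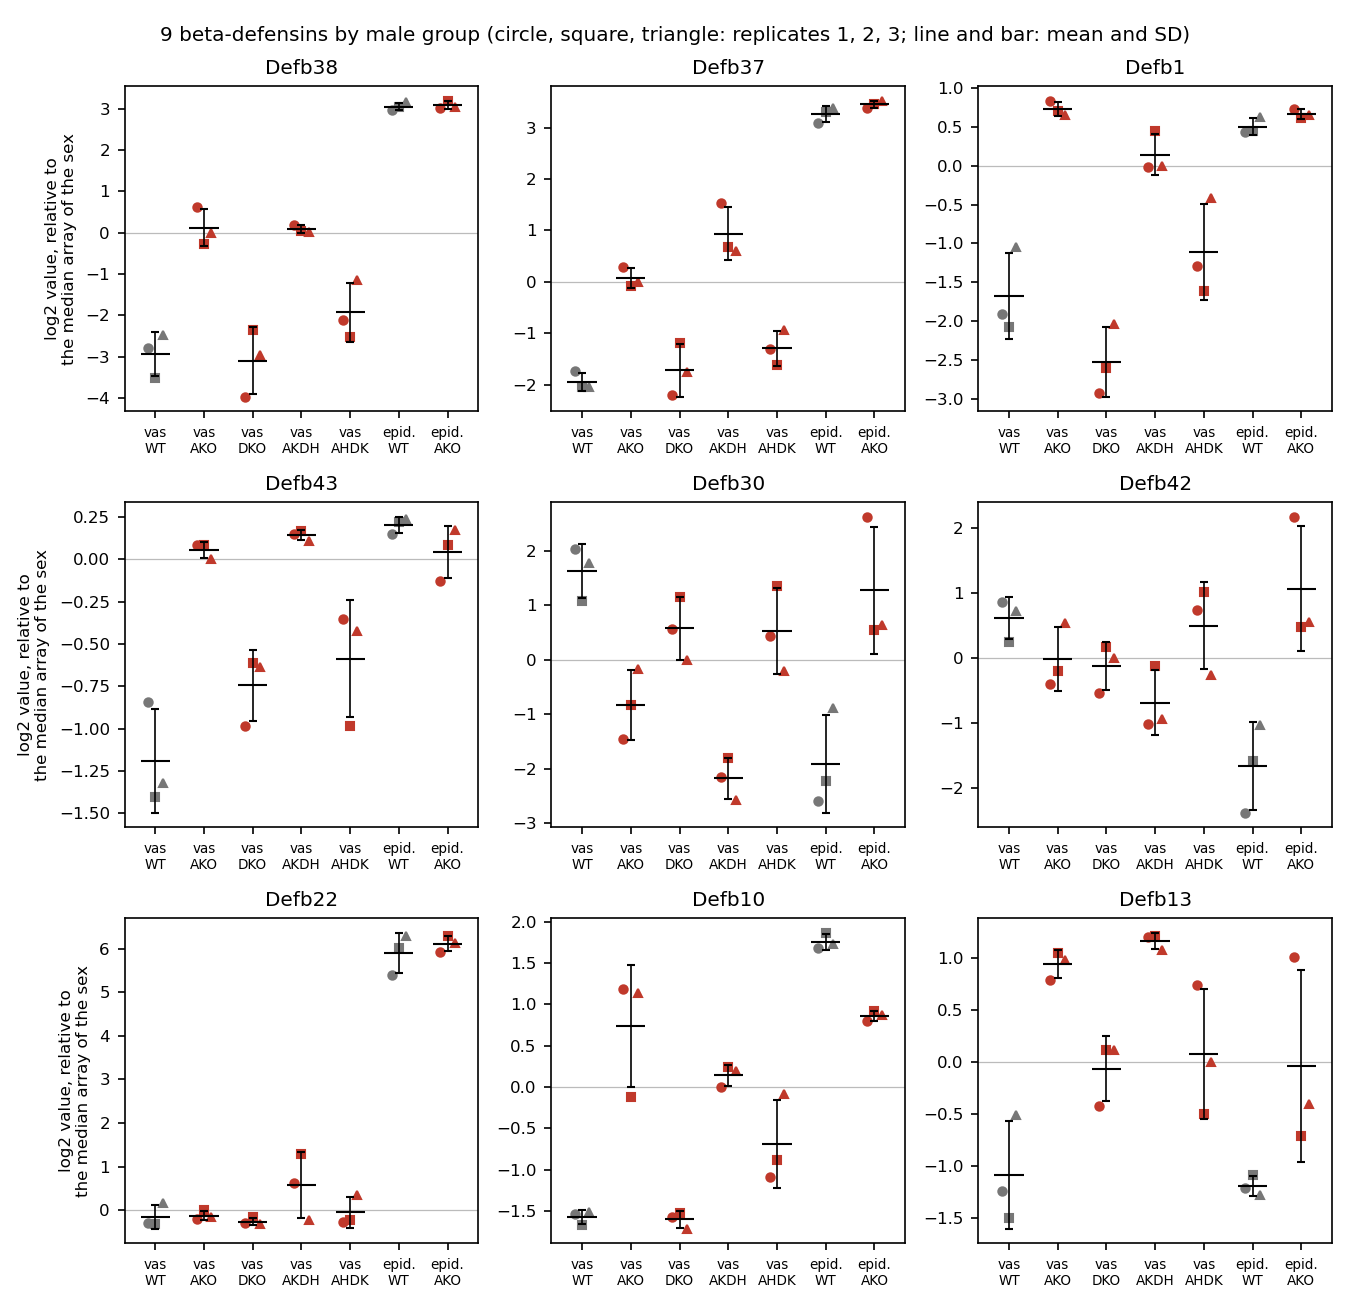
Log2 values of 9 beta-defensins in the 7 male groups, with 1 symbol per array (circle, square and triangle for replicates 1, 2 and 3), a line at the mean and a bar of 1 SD, WT in grey and mutants in red. Defb38, Defb37, Defb1, Defb43, Defb10 and Defb13 are higher in AKO and AKDH vas deferens than in WT, Defb30 is lower, and Defb22 is high in the epididymis arrays of both genotypes.

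AKDH, with 1 mutant Hoxd9,10,11 copy besides, was compared with WT in the same way. In AKDH vas deferens 11 members were higher and 5 lower than in WT (40% of the family, against 24.3% of all genes). Of all genes 9.57% were called higher and 14.8% lower. The AKDH arrays lay wholly above WT in 14 members and wholly below in 7, against 13.8% and 27.7% of all genes. The 11 that rose were all among the 12 called in AKO, Defb44-ps being the exception, but both comparisons use the same WT arrays. Defb37 was at 1.54, 0.68 and 0.60 (2.88, SE 0.28, adjusted p = 6.47e-05) and Defb38 at 0.20, 0.03 and 0.02 (3.01, SE 0.43, adjusted p = 0.000587). Defb13 was at 1.20, 1.21 and 1.07 (2.25), Defb43 at 0.15, 0.17 and 0.11 (1.33), and Defb14 at 0.36, 0.41 and 0.48 (0.87). In each of these genes the 3 AKDH arrays lay above all WT arrays. The other rises were those of Defb40 (2.53), Defb28 (2.19), Defb1 (1.82), Defb10 (1.72), Defb11 (1.55, adjusted p = 0.0148, and 0.0657 without WT replicate 2) and Defb48 (1.33).

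Defb30 fell in AKDH too, to -2.16, -1.81 and -2.57 (-3.81, SE 0.44, adjusted p = 0.000165). Defb42 also fell, to -1.01, -0.12 and -0.93 (-1.29, SE 0.36, adjusted p = 0.0232). All 3 AKDH arrays of both genes were below all WT arrays. The adjusted p of Defb42 rose to 0.0605 without AKDH replicate 3, 0.0768 without AKDH replicate 1, 0.0738 without WT replicate 1 and 0.0599 without WT replicate 3. Falls of Defb25 (-0.25), Defb36 (-0.22) and Defb29 (-0.20) on chromosome 2 were small. Leaving out 1 array removed the call of Defb25 for WT replicates 2 and 3 and AKDH replicates 2 and 3 (adjusted p 0.0524 to 0.0973), that of Defb36 for WT replicate 2 and AKDH replicates 1 and 2 (0.0585 to 0.0655), and that of Defb29 for every array but AKDH replicate 2 (0.0569 to 0.12). Defb22 was at 0.63, 1.30 and -0.21 in AKDH and was not called (0.72, adjusted p = 0.0957). Without AKDH replicate 3, the AKDH array with the highest sperm mean, the difference was 1.12 with an adjusted p of 0.00517.

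**Figure D3:**
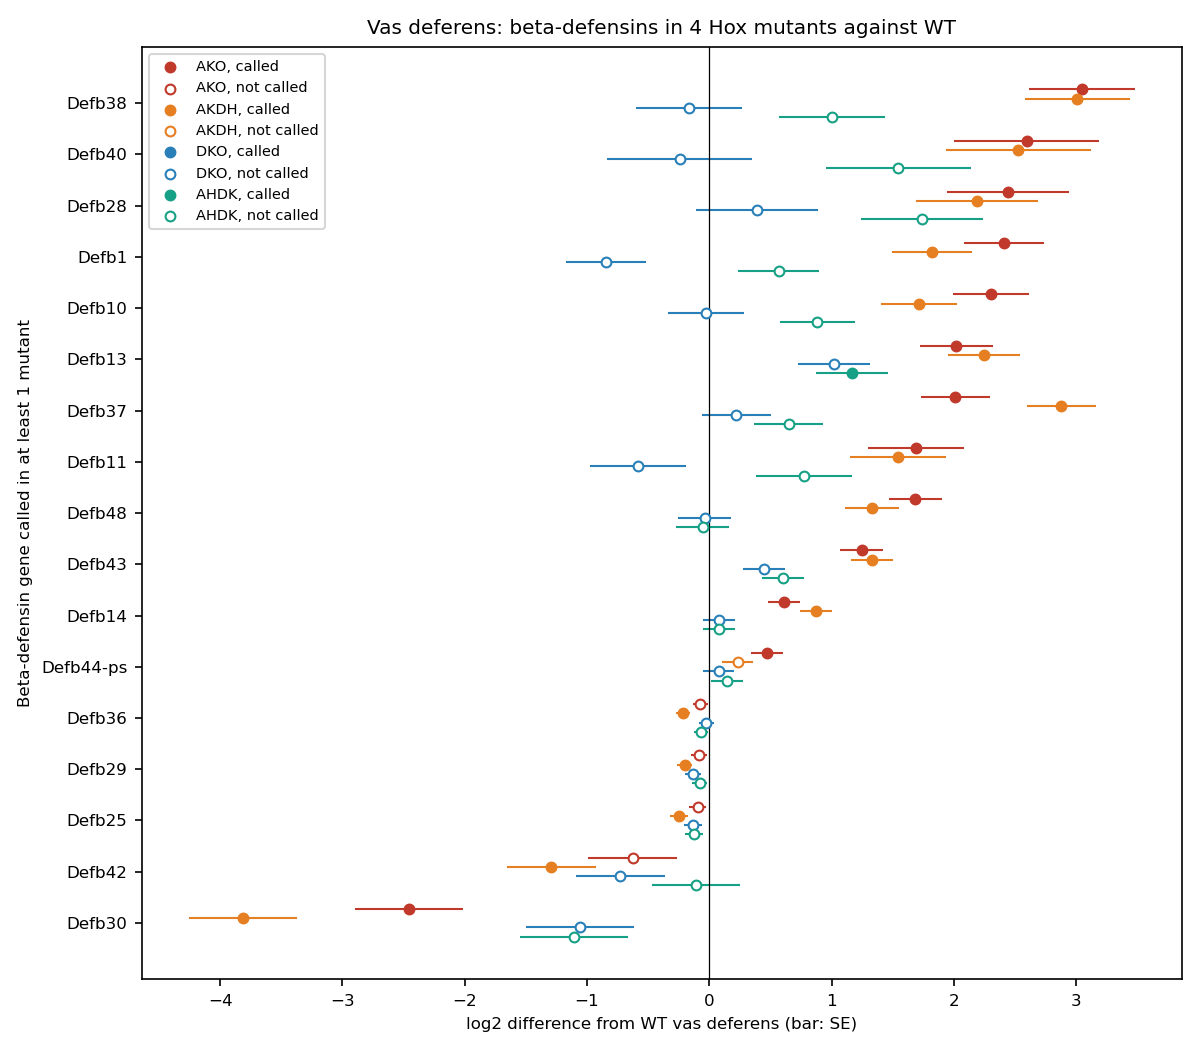
Log2 difference from WT vas deferens in AKO, AKDH, DKO and AHDK, with bars of 1 SE, for the 17 beta-defensins called in at least 1 of these mutants; filled points are called and open points are not. AKO and AKDH points lie to the right for the same 11 genes and to the left for Defb30, whereas the DKO and AHDK points are open except that of Defb13 in AHDK.

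The vas deferens labelled Hoxd9,10,11-/- gave no call in the family. In DKO vas deferens 0 of 40 members passed in limma and 5.87% of all genes were called. At an unadjusted p below 0.05 there were 4 members (10%), against 20.7% of all genes. The smallest adjusted p was that of Defb13, at -0.42, 0.11 and 0.12 (1.02, adjusted p = 0.0655, and 0.0222 without WT replicate 3). Defb38 was at -3.97, -2.35 and -2.97 and Defb37 at -2.21, -1.19 and -1.76, within or near the WT range. In AHDK only Defb13 passed, at 0.74, -0.50 and 0 (1.17, SE 0.29, adjusted p = 0.0477, against 4.15% of all genes called, 2.08% higher and 2.07% lower), and its lowest AHDK array was level with the highest WT array (-0.51). That call was lost without WT replicate 1 (adjusted p = 0.141), WT replicate 2 (0.185), AHDK replicate 1 (0.141) or AHDK replicate 3 (0.103). Without AHDK replicate 2, Defb43 was called as well (0.80, adjusted p = 0.0185).

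The difference between the mutants was then tested directly, in a comparison of DKO with AKO added after the values were seen. Of the 40 members 14 were lower and 1 was higher in DKO than in AKO (37.5%, against 17.8% of all genes). Of all genes 6.37% were called lower and 11.4% higher. In the same comparison 8 of 10 smooth muscle genes were higher in DKO (median 0.81), while 7 of 10 adipocyte genes (-1.28), 3 of 7 clear and narrow cell genes (-0.61) and 2 of 6 basal cell genes (-0.33) were lower, and the part of these cells was not tested. Defb1 differed most clearly, at -2.93, -2.60 and -2.04 in DKO and 0.84, 0.71 and 0.65 in AKO (-3.26, SE 0.33, adjusted p = 0.00018). Defb38 (-3.21), Defb40 (-2.84), Defb10 (-2.33), Defb11 (-2.27), Defb37 (-1.79), Defb48 (-1.72), Defb6 (-1.41) and Defb43 (-0.80) were also lower in DKO, and these calls held with each array left out. The count dropped to 9 without DKO replicate 1, and the calls lost there were Defb28 (-2.05, adjusted p = 0.0607 without that array), Defb26 (-2.02, 0.105), Defb13 (-1.0, 0.135), Defb47 (-0.60, 0.122), Defb14 (-0.53, 0.0578) and Defb30, the member higher in DKO (1.40, 0.111). Other arrays removed some of these calls too: Defb13 lost its own without any 1 of the 6 arrays (0.0588 to 0.135), Defb47 without any but AKO replicate 3, Defb26 without any but AKO replicate 3, Defb30 without AKO replicate 1 or 2 or DKO replicate 2, and Defb28 without AKO replicate 1 (0.0584).

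Adding 1 mutant copy of the other cluster's genes gave no call in the family on either background. In AKDH against AKO 0 of 40 passed and 1.29% of all genes were called. At an unadjusted p below 0.05 there were 6 members (15%), against 14.2% of all genes. The difference was 0.87 for Defb37 and -1.36 for Defb30, both with an adjusted p of 0.178 and with no overlap between the arrays of both mutants. Groups without overlap were seen in 3 members on the higher side and 7 on the lower side, against 6.03% and 14.3% of all genes. Without AKDH replicate 3, Defb22 was called (1.09, adjusted p = 0.0443). In AHDK against DKO 0 of 40 passed and 0.366% of all genes were called. An unadjusted p below 0.05 was reached by 7 members (17.5%), against 13.1% of all genes. The member with the largest difference was Defb26, at -0.87, 0 and 1.41 in AHDK and -2.16, -1.59 and -2.02 in DKO (2.10, adjusted p = 0.149).

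Other genes of mucosal defence were read from the same comparison of AKO with WT vas deferens. Of 23 related secreted antimicrobial proteins, 4 rose and 0 fell: Eppin, a protease inhibitor that binds sperm (3.56, adjusted p = 0.000785), S100a8, a calprotectin subunit of neutrophils (1.91, adjusted p = 0.0261), Wfdc12 (1.07, adjusted p = 0.034) and Spag11a, an epididymal beta-defensin relative (0.42, adjusted p = 0.0227). Their median was 0.09. Among 20 receptors, sensors and inducers of beta-defensins only Tlr1 passed (0.90, adjusted p = 0.0066). Il17rc (-0.29, adjusted p = 0.0831), Tlr4 (0.39, 0.15) and Il17ra (-0.27, 0.153) did not. Of 11 androgen and segment regulators Pax8 fell (-0.53, adjusted p = 0.00701), while Pax2 (0.39, 0.0718), Ros1 (-0.63, 0.116) and Esr1 (-0.65, 0.12) were not called.

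Markers of other cells and segments moved with the same comparison. Of 16 proximal epididymis genes 2 rose in AKO vas deferens, Rnase9 (4.57, adjusted p = 0.000193) and Gpx5 (4.01, adjusted p = 0.00212). Their mean per array was -0.86 to -0.56 in WT and -0.10 to 0.04 in AKO. Of 7 clear and narrow cell genes, which mark acid-secreting cells, 4 rose, led by Atp6v0d2 (2.39, adjusted p = 0.00703) and Atp6v1g3 (1.83, adjusted p = 0.00922), with array means of -1.19 to -0.75 in WT and -0.05 to 0.24 in AKO. Of 10 adipocyte genes 8 rose, among them Cd36 (1.66) and Lpl (1.52), with array means of -0.96 to 0.17 in WT and 0.39 to 1.51 in AKO. Of 10 smooth muscle genes 3 fell, Actg2 (-0.71), Cnn1 (-0.73) and Mylk (-0.62), with means of 0.25 to 0.71 in WT and -0.34 to 0.09 in AKO. Of 12 sperm genes 2 fell, Prm1 (-2.82) and Prm2 (-2.89), with means of -0.04 to 0.49 in WT and -0.78 to -0.52 in AKO. None of 6 general epithelial genes passed (median 0.10), and of 6 basal cell genes Trp63 did (0.49, adjusted p = 0.0423), while 0 of 9 leukocyte genes and 1 of 9 ovary genes (Cyp17a1, 1.61) were called. In AKDH 9 of 10 adipocyte, 5 of 7 clear cell and 5 of 6 basal cell genes rose and 8 of 10 smooth muscle genes fell. In AHDK, where Defb13 was the single member called, 9 of 10 adipocyte genes also rose (median 2.10) and no gene of the clear cell, basal cell or smooth muscle lists was called. Because the values are centred, no marker can be said to be absent, and the part of these cells in the beta-defensin differences was not tested.

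In the caudal epididymis of AKO mice 0 of 40 members were higher and 1 was lower than in WT (2.5%, against 0.782% of all genes in either direction, 0.411% higher and 0.371% lower). Defb10 was the one called, at 1.67, 1.86 and 1.73 in WT and 0.80, 0.92 and 0.87 in AKO (-0.89, SE 0.07, adjusted p = 0.013), with no overlap. Leaving out WT replicate 3 raised its adjusted p to 0.0665, AKO replicate 2 to 0.0641 and AKO replicate 3 to 0.0966, and it was 0.0195 when AKO replicate 1 was dropped. In all, 12 members (30%) had an unadjusted p below 0.05, against 16% of all genes.

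Epididymis AKO replicate 1 stood apart for part of the family. In that array 14 members were more than 1 above every other male array, by 1.15 to 6.53, while 23 were at or below the highest other array and 3 lay between (Defb30, Defb36 and Defb39). How many of all genes stood so far apart there was not counted, so whether the family differs from other genes is not known. Defb41 was at 6.78 there and at 0.16 and 0.18 in the other AKO arrays, Defb47 at 6.28 against 0.50 and 0.54, and Defb18 at 5.63 against 0.20 and 0.49. The others were Defb15, Defb25, Defb35, Defb20, Defb21, Defb45, Defb48, Defb29, Defb19, Defb34 and Defb42, on all 4 chromosomes. Among members high in the WT epididymis, Defb22 was at 5.93 in AKO replicate 1, Defb38 at 3.02 and Defb37 at 3.38, all within the range of the other epididymis arrays. This did not hold for all such members. Defb20 was above every vas deferens array in the WT epididymis (0.93, 1.35 and 2.47) and was at 5.54 in AKO replicate 1. The proximal epididymis mean of 5.11 named above was measured in the same array, and its part in these 14 values was not tested.

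**Figure D4:**
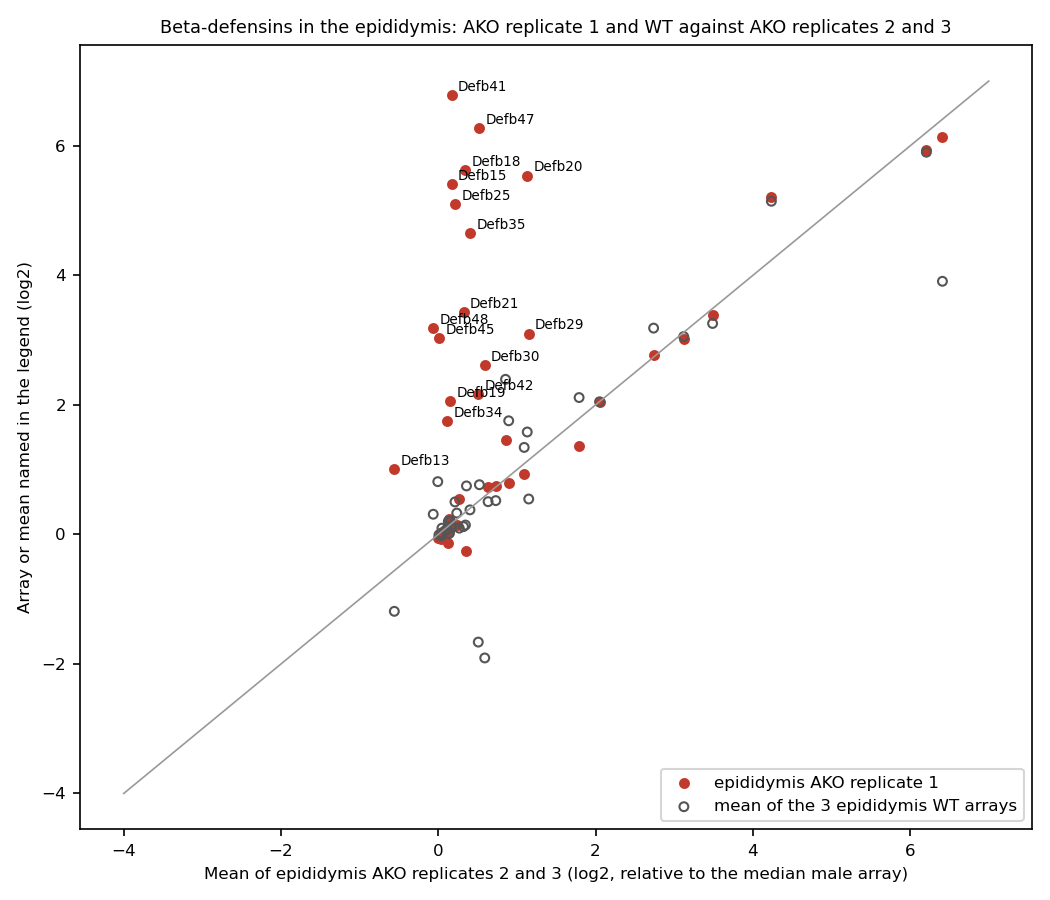
Each of the 40 beta-defensins in the epididymis, with the mean of AKO replicates 2 and 3 on the x axis and, on the y axis, AKO replicate 1 (filled) or the mean of the 3 WT arrays (open), all as log2 values relative to the median male array; the line marks equal values. Filled points well above the line are the members high in AKO replicate 1, such as Defb41 at 6.78.

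Without that array 2 members were called, against 1.32% of all genes. They were Defb10 (-0.86, adjusted p = 0.0195) and Defb39 (-0.91, SE 0.08, adjusted p = 0.0179). Defb39 was at 5.11, 5.21 and 5.11 in WT, 4.30 and 4.17 in the remaining AKO arrays and 5.22 in the array left out. Defb30, low in the WT epididymis, was at -2.60, -2.24 and -0.89 in WT and 2.62, 0.55 and 0.63 in AKO (3.17, SE 0.69, adjusted p = 0.107; 2.50 and 0.0872 without AKO replicate 1). Defb42 was at -2.37, -1.59 and -1.03 against 2.17, 0.47 and 0.55 (2.72, adjusted p = 0.0926; 2.17 and 0.0661 without it). Defb23 was at 2.86, 3.84 and 5.03 against 6.14, 6.51 and 6.31 (2.41, adjusted p = 0.105). In these 3 genes every AKO array was above every WT array, but none passed. AKO arrays lay wholly above WT in 5 members and wholly below in 6, against 13.1% and 9.02% of all genes.

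Among the other lists in the AKO epididymis, 1 of 23 antimicrobial genes rose, Wfdc2, an epididymal secretory protein (1.46, adjusted p = 0.0423), while S100a9 (0.79, 0.0608), S100a8 (1.24, 0.144) and Eppin (0.17, 0.384) did not pass. All list results here include AKO replicate 1 and were not recomputed without it. The antimicrobial mean was 1.11 in that array and 0.32 and 0.35 in the other AKO arrays. None of 20 sensors and inducers and none of 11 regulators was called, the nearest being Tlr3 (-0.55, 0.144) and Foxa1 (0.34, 0.192). Of 16 proximal epididymis genes Spint4 rose (5.08, adjusted p = 0.0107), and Lcn5 (4.41, 0.0625) did not pass. Of 12 sperm genes 5 fell, led by Prm1 (-4.89, adjusted p = 0.00165), with array means of 1.86 to 3.17 in WT and -0.55 to -0.12 in AKO. Of 10 smooth muscle genes Des fell (-1.64, adjusted p = 0.0473), with means of -0.84 to -0.17 in WT and -1.70 to -1.19 in AKO. No gene of the epithelial, basal, clear cell, adipocyte, leukocyte or ovary lists was called, and the part of the sperm and muscle differences in the beta-defensin values was not tested.

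The AKO effect differed between epididymis and vas deferens for 12 of the 40 members, in a test of the difference itself (30% of the family, against 7.22% of all genes). In 9 members the epididymis effect was below that in the vas deferens (3.25% of all genes), and in 3 it was above (3.97%). The 9 were Defb10 (-3.20), Defb40 (-3.06), Defb38 (-3.01), Defb28 (-2.75), Defb11 (-2.29), Defb1 (-2.25), Defb6 (-2.18), Defb37 (-1.82) and Defb43 (-1.41). The 3 were Defb30 (5.63, SE 0.81, adjusted p = 0.000747), Defb42 (3.35) and Defb23 (2.39). Defb30 differed by -2.45 in the vas deferens and by 3.17 in the epididymis, and Defb38 by 3.05 and 0.03. All 12 were also called without epididymis AKO replicate 1, along with Defb48 (-2.06), in a fit that called 6.06% of all genes. With the replicate number as a block 10 were called and 9 were shared, the losses being Defb42 (adjusted p = 0.0545), Defb6 (0.0585) and Defb23 (0.0587). Defb23 also lost its call, at an adjusted p of 0.0502 to 0.0546, in 7 of the fits that left out 1 array (WT vas replicate 1, any AKO vas array, WT epididymis replicates 1 and 2, and AKO epididymis replicate 2), and Defb40 without WT vas replicate 2 (0.0548) or AKO vas replicate 1 (0.052).

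Within AKO, 11 members were higher and 0 lower in the epididymis than in the vas deferens (27.5%, against 15.5% of all genes; 7.15% were higher and 8.31% lower). Defb23 (6.41), Defb22 (6.24), Defb39 (4.16), Defb37 (3.38), Defb38 (2.97), Defb26 (2.66), Defb20 (2.52), Defb30 (2.09), Defb14 (1.89), Defb29 (1.84) and Defb36 (0.41) were called. With the replicate number as a block 10 were called, and Defb20 (adjusted p = 0.0971) and Defb30 (0.0774) were lost. All 10 adipocyte genes (median -2.69) and 8 of 10 smooth muscle genes (-1.67) were lower in the AKO epididymis, and 6 of 7 clear and narrow cell genes (1.26) and 5 of 16 proximal epididymis genes (2.14) were higher; their part was not tested. In WT, from other arrays, the same contrast was 5.98 for Defb38, 5.20 for Defb37 and -3.54 for Defb30. Without epididymis AKO replicate 1 the count was 14, and 13.6% of all genes were called. In that fit Defb13 (-1.50, adjusted p = 0.00315) and Defb48 (-0.76, 0.0382) were lower in the epididymis. It shared 10 of the 11 calls, and Defb30 was lost (1.42, adjusted p = 0.0951). The count was 21 without replicate 2 and 17 without replicate 3, and the shares of all genes were not counted there. Both fits kept replicate 1, and their added calls included members high only in that array, such as Defb19, Defb34 and Defb35. Defb30 was also lost without vas AKO replicate 1 (0.0898) or 2 (0.0575), and Defb20 without any vas AKO array (0.0844 to 0.0928).

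In the female tract 37 members spanned 0.110 to 0.817 over the 21 arrays, and only Defb1, Defb14 and Defb19 spanned 1 or more. The matching spans of all genes were not counted, so these only describe the members. No member was called by limma in any of the 4 uterine mutants, where 0.0903% (AKO), 0.973% (DKO), 6.58% (AKDH) and 3.53% (AHDK) of all genes were called. An unadjusted p below 0.05 was reached by 0 members in AKO (9.35% of all genes), 5 in DKO (12.5%, against 15.3%), 4 in AKDH (10%, against 22.7%) and 4 in AHDK (10%, against 21.4%). The 2 members nearest to a call were Defb4 (0.16, adjusted p = 0.537) and Defb36 (-0.13, 0.635) in AKO, Defb8 (-0.25, 0.174) and Defb7 (-0.17, 0.2) in DKO, Defb8 (-0.29, 0.0605) and Defb7 (-0.20, 0.071) in AKDH, and Defb36 (-0.21, 0.116) and Defb11 (-0.26, 0.138) in AHDK. In the AKO oviduct 0 of 40 members and 0% of all genes were called. At an unadjusted p below 0.05 there was 1 member (2.5%), against 3.05% of all genes, and Defb30 (0.06) and Defb42 (-0.12) both had an adjusted p of 0.993.

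WT oviduct and WT uterus differed in 5 members, 2 higher and 3 lower in the oviduct (12.5%, against 23.9% of all genes; 14.5% were higher and 9.39% lower). Defb6 was at 0.43, 0.29 and 0.61 in the oviduct and -0.03, 0.07 and -0.04 in the uterus (0.44, SE 0.08, adjusted p = 0.00102), with all oviduct arrays higher. Defb14 was at 0.46, 0.05 and 1.52 against 0.02, 0.03 and 0.03 (0.65, SE 0.23, adjusted p = 0.0479), a difference that was 0.23 without oviduct WT replicate 3 (adjusted p = 0.156) and 0.96 without oviduct WT replicate 2 (0.00187). Its adjusted p was 0.0943 to 0.0978 without any 1 WT uterus array. Defb45 (-0.17, adjusted p = 0.0272), Defb7 (-0.17, 0.0367) and Defb46 (-0.25, 0.0417) were lower in the oviduct by small amounts. Defb7 and Defb46 lost their calls without oviduct WT replicate 2 (adjusted p = 0.0791 and 0.0837), while Defb45 kept its own (0.0454). Other single arrays removed these calls too, with adjusted p up to 0.133 for Defb45 (without uterus WT replicate 2), 0.179 for Defb7 (without uterus WT replicate 1) and 0.144 for Defb46 (without oviduct WT replicate 3). Defb19, a beta-defensin known from the gonads, was at 0.98 in oviduct WT replicate 2, the array high in ovary genes, and at 0.20 and 0.01 in the other WT oviducts; without oviduct WT replicate 3 it was called higher in the oviduct (0.60, adjusted p = 0.0224). The part of ovarian RNA in that value was not tested.

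**Figure D5:**
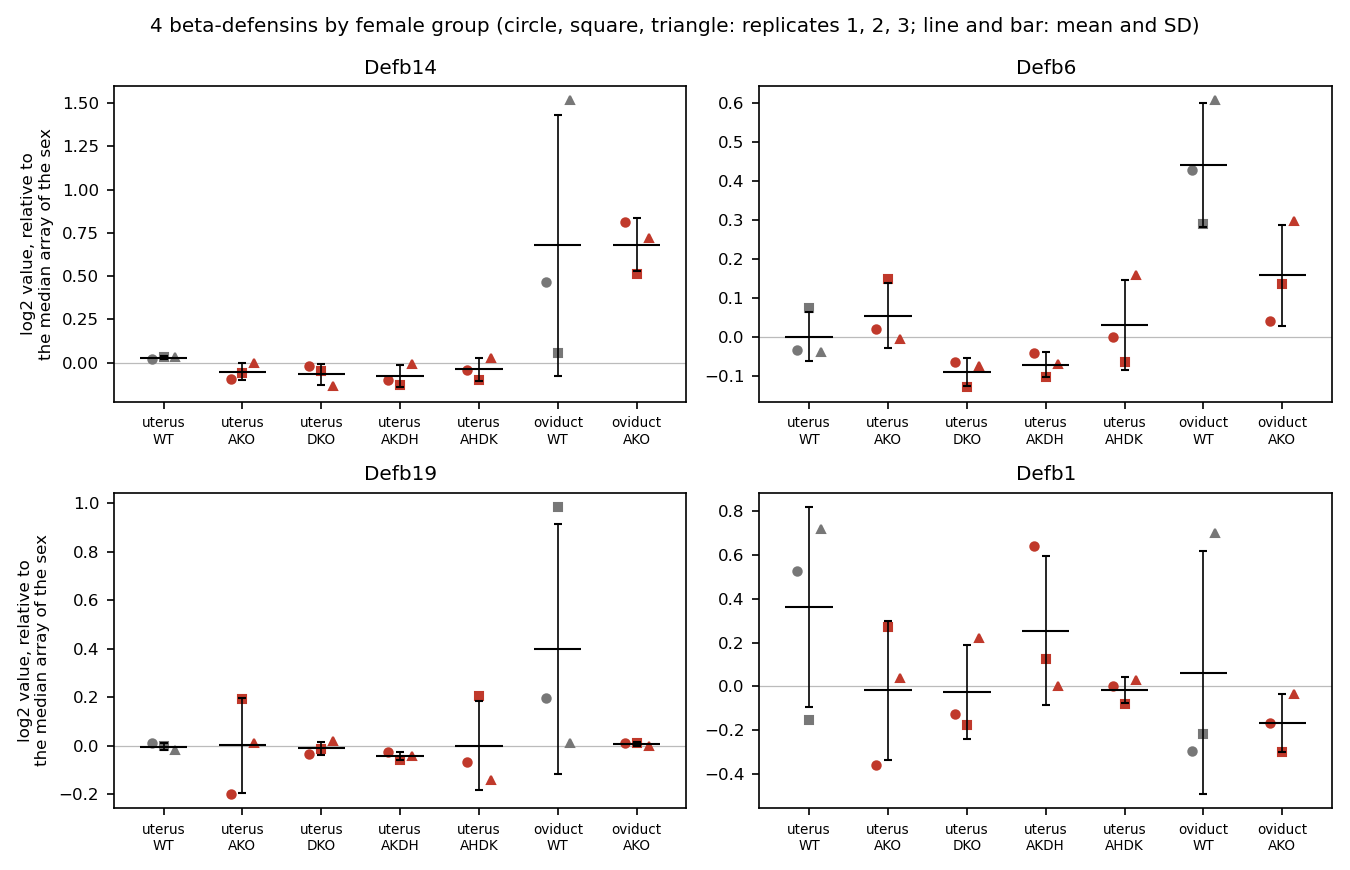
Log2 values of Defb14, Defb6, Defb19 and Defb1 in the 7 female groups, relative to the median female array, with 1 symbol per array, a line at the mean and a bar of 1 SD. The WT oviduct arrays of Defb6 (0.29 to 0.61) lie above the WT uterus arrays (-0.04 to 0.07), and Defb19 is high only in WT oviduct replicate 2.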

How the data were processed

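RNA of 42 arrays was analysed, in groups taken from the labels, with 300 ng of total RNA per array. The authors deposited log values for 28856 probe sets, taken here as log2 values. Neither their log base nor how probes were summarised and arrays normalised is given in the sources used here, and higher was taken as more RNA. Medians of arrays lay between -0.0538 and 0.0371. Centring removed signal over background, so dim probe sets could not be filtered out. A filter on spread was applied only as an alternative setting, not in the reported fits. The number of arrays limits the precision.

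Of the probe sets, 21789 had 1 gene symbol, 1621 several and 5446 none. Values were averaged per gene (999 of 19938 genes had several probe sets). Members of similar sequence may share probe signal, which was not examined. The lmFit and eBayes steps of limma 3.58.1 (R 4.3.3) were run on every array of the tissue, or of the sex for comparisons between tissues, with Benjamini-Hochberg adjustment over 19938 genes. The steps were tested on simulated data. The genes named were the 5 given markers, all members called in a male comparison (the 10 largest differences each way and the smaller ones in WT), all called female members or the 2 nearest, and up to 4 genes per list. Members and lists were chosen with earlier results of these data known. Comparisons of mutants with WT of a tissue share the WT arrays. Array-specific examples, the DKO against AKO comparison and genes gained when an array was left out were chosen after the values were seen.

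Replicate numbers were tested as pairs over 42 pairs of groups. In 4 of them all 3 correlations of same-numbered arrays exceeded 0.1, including vas deferens with epididymis in WT and in AKO. Fits with the replicate number as a block were therefore run as an alternative. Differences, SE and adjusted p are from the unblocked fits unless a block is named. For WT epididymis against WT vas deferens, the blocked limma fit gave larger adjusted p: 1.15e-05 for Defb22, 0.00941 for Defb30 and 0.0187 for Defb42. Some genes of the lists are not reported here. Promoters are from RefSeq.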

Additional observations from a re-analysis of the deposited data

Results flagged for a closer look

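The AKO effect differed between epididymis and vas deferens, in limma's test of the difference, for Defb10 (-3.20, adjusted p = 0.000158), Defb30 (5.63, 0.000747), Defb43 (-1.41, 0.00152), Defb38 (-3.01, 0.00309), Defb1 (-2.25, 0.00371), Defb42 (3.35, 0.00547), Defb37 (-1.82, 0.0055), Defb6 (-2.18, 0.00834), Defb11 (-2.29, 0.0117), Defb28 (-2.75, 0.0124), Defb40 (-3.06, 0.0184) and Defb23 (2.39, 0.0262). Each value is the log2 effect in the epididymis minus that in the vas deferens. With the replicate number as a block the adjusted p was 0.0545 for Defb42, 0.0585 for Defb6 and 0.0587 for Defb23, and after quantile normalization it was 0.0593 for Defb37 and 0.366 for Defb23, so these calls were lost there. Without epididymis AKO replicate 1 these differences had the same sign, for example -3.16 for Defb10, 4.95 for Defb30 and 2.80 for Defb42.

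A probe set annotated to both Defb35 and Defb12, which is no member because it names 2 genes, was at 6.05 in epididymis AKO replicate 1. It was at 0.56 and 0.74 in the other AKO epididymis arrays and at 0.50, 0.51 and 0.68 in WT, the control arrays.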

How the results depend on the processing

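Calls of single members were recomputed under each alternative for members called in the reported fits. The 5 given markers were followed as well in most male comparisons. Of these recomputed calls 1507 kept their side of the threshold, 144 were lost and 5 were gained. Gains of other members are not in these numbers and appear only in the counts per comparison. Where either fit made a call, 0 changed sign. Direction was not compared where neither fit made a call. Counts within 1.5 times of the reported one were 116 of 129 for other settings and 91 of 108 for fits that left out 1 array. The count of called members was 9 to 13 without 1 array for AKO vas deferens against WT, 12 to 15 for AKDH, 19 for WT epididymis against vas deferens and 10 to 13 for the difference of AKO effects. The filter on spread tested fewer genes; for the other changes in calls the cause was not tested.

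The AHDK vas deferens count of 1 was 0 after quantile normalization, 0 with only both groups fitted and 0 with the replicate block, and 0 to 2 without 1 array. DKO vas deferens gave 0 to 1 without 1 array, and AKDH against AKO gave 0 to 1 and 1 without the arrays set apart. DKO against AKO, added after the data were seen, gave 9 to 14. AKO epididymis against WT gave 0 after quantile normalization, 4 when the 25% of genes with the lowest SD were left out (Defb42, Defb30 and Defb23 higher, Defb10 lower), 0 with the replicate block, 2 without the arrays set apart and 0 to 2 without 1 array. AKO epididymis against AKO vas deferens gave 9 to 21. WT oviduct against uterus gave 2 after quantile normalization, 2 after the filter on SD, 1 with only both groups, 1 with the replicate block, 3 without the arrays set apart and 2 to 4 without 1 array. With the block, WT epididymis against vas deferens kept all 19 calls. The same comparison gave 21 after quantile normalization and 27 without the arrays set apart, in both cases with all 19 among them. With only both groups fitted it gave 20, of which 17 were shared. The shares of all genes in these fits were not counted. AKO epididymis against AKO vas deferens gave 10 with the block, of which 9 were shared.

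With 3 arrays a group and centred values, signal over background is unknown, and differences below the spread between arrays could not be detected.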
